A study of Homo sapiens with 9 samples.

Results

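The 4 HOX gene clusters were followed through peak lists of accessible chromatin from HEK293T cells. Members were chosen by position: every peak in the body of a HOX gene, or within 5 kb of it, in any of 4 lists deposited on GRCh38. The 38 HOX genes listed for this purpose were 10 of the HOXA cluster on chromosome 7, 10 of the HOXB cluster on chromosome 17, 9 of the HOXC cluster on chromosome 12 and 9 of the HOXD cluster on chromosome 2, and any other HOX gene was not analysed here. Their windows spanned 451.945 kb in all. Overlapping peaks of the 4 lists were merged into regions, which gave 67 HOX regions of 71597 regions in the whole series, and 42288 of the latter lay in the same kind of window around 20056 protein-coding genes.

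Accessibility had been measured by ATAC-seq (Tn5 transposase places sequencing adapters into DNA that it can reach) in HEK293T, an established human embryonic kidney line that carries the SV40 large T antigen. The groups were cells lacking IGF2BP1, IGF2BP2 or IGF2BP3, and a control made in parallel with CRISPR/Cas9 and a guide that matches no mammalian gene. All cells came through transient transfection of guide and GFP plasmids, received no further treatment, and each knockout was 1 clone grown from a sorted cell, so an effect of the genotype and one of the clone cannot be told apart. Behind the lists stood 2 control libraries (batches 2 and 3), 3 of the IGF2BP1 knockout (batches 1, 2 and 3), and 2 each of the IGF2BP2 and IGF2BP3 knockouts (batches 2 and 3). Each group was deposited as 1 list of peak starts and ends without heights or scores. No spread between libraries could therefore be measured, no test was possible, batches could not be compared, and batch 1 cannot be told apart from the IGF2BP1 knockout. Read depth is unknown for all lists, and a peak missing from a list may be a site just under the caller's threshold there. In bulk cells, a site open in fewer cells and a site less open in every cell cannot be told apart.

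HOX genes encode homeodomain transcription factors that give cells their position along the head-to-tail axis. In mammals they stand in 4 clusters, in which the order of genes along the chromosome follows the order of their expression along the body, and genes at the same place in different clusters (a paralog group) descend from a common ancestor. Polycomb complexes keep unused parts of a cluster compact, Trithorax complexes keep used parts active, and CTCF and cohesin form boundaries between them. IGF2BP1, IGF2BP2 and IGF2BP3 are RNA-binding proteins that bind messenger RNAs and affect their stability and translation.

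Sequences of the promoters on which the results below turn are shown first. RefSeq promoter sequences (GRCh38.p14) matched 20 of the 38 genes. They are given 5′ to 3′ on the strand of the gene, as the 250 bases before the annotated start, with each CG dinucleotide in capitals because CpG-rich promoters are the common targets of both Polycomb and Trithorax complexes. HOXA13 and HOXD13, factors of the most posterior body and of limb and genital development, stand for promoters under a peak in all 4 lists. HOXA9, a posterior factor known for its high level in leukaemia, and the shared promoter of HOXC4 and HOXC5 stand for promoters under a peak in some lists. HOXA7, HOXD10, HOXD4 and HOXB1, the last a hindbrain factor, stand for promoters under no peak.
HOXA13 (chr7:27200092-27200341, minus strand): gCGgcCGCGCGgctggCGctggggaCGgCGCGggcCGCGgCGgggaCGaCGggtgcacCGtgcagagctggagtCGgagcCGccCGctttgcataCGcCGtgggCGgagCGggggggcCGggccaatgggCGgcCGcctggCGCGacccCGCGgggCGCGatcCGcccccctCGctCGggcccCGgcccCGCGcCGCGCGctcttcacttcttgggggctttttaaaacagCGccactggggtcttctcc
HOXD13 (chr2:176092471-176092720, plus strand): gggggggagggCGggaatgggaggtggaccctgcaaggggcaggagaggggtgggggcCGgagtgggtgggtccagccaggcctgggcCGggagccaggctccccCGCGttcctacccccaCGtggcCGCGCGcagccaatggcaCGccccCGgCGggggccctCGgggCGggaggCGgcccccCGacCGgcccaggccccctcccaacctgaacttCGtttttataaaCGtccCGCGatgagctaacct
HOXA9 (chr7:27165538-27165787, minus strand): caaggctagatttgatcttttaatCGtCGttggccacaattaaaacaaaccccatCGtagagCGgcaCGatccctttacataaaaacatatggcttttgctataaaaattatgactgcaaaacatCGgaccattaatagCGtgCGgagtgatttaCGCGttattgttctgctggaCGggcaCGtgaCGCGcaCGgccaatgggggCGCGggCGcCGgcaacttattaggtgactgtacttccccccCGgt
HOXC4 and HOXC5 (chr12:54016638-54016887, plus strand): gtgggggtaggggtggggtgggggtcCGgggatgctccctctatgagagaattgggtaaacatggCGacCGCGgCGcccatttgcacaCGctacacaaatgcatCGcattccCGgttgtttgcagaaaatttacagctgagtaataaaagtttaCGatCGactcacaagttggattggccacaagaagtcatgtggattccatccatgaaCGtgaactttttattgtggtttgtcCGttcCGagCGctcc
HOXA7 (chr7:27156676-27156925, minus strand): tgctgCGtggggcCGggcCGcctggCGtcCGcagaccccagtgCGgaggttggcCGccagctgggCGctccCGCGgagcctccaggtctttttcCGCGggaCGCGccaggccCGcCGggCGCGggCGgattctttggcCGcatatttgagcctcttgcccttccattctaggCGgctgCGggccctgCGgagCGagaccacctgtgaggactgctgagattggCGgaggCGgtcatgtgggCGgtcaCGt
HOXD10 (chr2:176116528-176116777, plus strand): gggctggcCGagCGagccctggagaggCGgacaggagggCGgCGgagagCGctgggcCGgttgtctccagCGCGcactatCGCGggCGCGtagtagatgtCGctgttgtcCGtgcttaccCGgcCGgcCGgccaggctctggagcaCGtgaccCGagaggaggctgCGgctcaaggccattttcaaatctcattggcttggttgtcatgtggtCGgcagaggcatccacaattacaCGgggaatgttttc
HOXD4 (chr2:176151300-176151549, plus strand): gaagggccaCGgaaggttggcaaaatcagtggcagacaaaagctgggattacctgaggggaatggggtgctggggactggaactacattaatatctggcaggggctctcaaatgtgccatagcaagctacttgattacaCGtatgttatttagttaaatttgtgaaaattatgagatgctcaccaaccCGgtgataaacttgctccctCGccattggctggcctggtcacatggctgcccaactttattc
HOXB1 (chr17:48531012-48531261, minus strand): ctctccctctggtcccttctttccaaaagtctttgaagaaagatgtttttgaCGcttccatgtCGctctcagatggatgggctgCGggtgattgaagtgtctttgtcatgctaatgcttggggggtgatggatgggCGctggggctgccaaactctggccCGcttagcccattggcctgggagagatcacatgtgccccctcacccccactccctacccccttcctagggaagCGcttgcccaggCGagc

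Over the full 300-base windows of RefSeq (250 bases before to 50 after the start), the HOXA13 promoter held 44 CG dinucleotides at 76.3% GC and the HOXD13 promoter 24 at 74%. The HOXA9 window held 22 CG at 48% GC, and that of HOXC4 and HOXC5 held 15 at 51.7%. Among the promoters without a peak shown above, CG counts ran from 31 in HOXA7 and 23 in HOXD10 to 11 in HOXB1 and 4 in HOXD4. Over all HOX windows without a peak they ran from 0 to 31. Taking all 26 distinct HOX windows, 9 overlapped a peak in all 4 lists, 5 in 1 to 3 lists and 12 in none. The median number of CG was 27 in the first class, 22 in the second and 14 in the last. Over all 35097 RefSeq windows, the median was 27 where all 4 lists had a peak (15653 windows) and 4 where none had one (16951 windows). HOX promoters under no peak thus held more CG dinucleotides, by the median, than the other promoters under no peak. The difference is a description of sequence classes, since some of the 26 windows belong to the same gene.

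Promoter motifs were searched on both strands as exact letters. CCAAT was in 17 of the 26 HOX windows, and 34.6% of all RefSeq windows held it. TATAAA, the core of a TATA box, was in 5 HOX windows, against 11.5% of all windows. GGGCGG, the core of a GC box, was in 13, against 44.9% of all windows, and it can overlap the CG dinucleotides marked above. TGATTNAT, a composite site of PBX and HOX proteins, was in 2 HOX windows, those of HOXD11 and HOXA2, against 2.82% of all windows. By peak class, CCAAT was in 6 of the 9 windows under a peak in all 4 lists and in 8 of the 12 under none.

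Per length, HOX windows were dense in peaks in every list. The control had 50 peaks there, the IGF2BP1 knockout 48, the IGF2BP2 knockout 56 and the IGF2BP3 knockout 46. Per 100 kb this was 11.1, 10.6, 12.4 and 10.2 peaks, against 1.91, 2.33, 2.60 and 2.01 over the windows of all protein-coding genes. Peaks covered 46.8 kb of the HOX windows in the control, 51.7 kb in the IGF2BP1 knockout, 42.2 kb in the IGF2BP2 knockout and 39.5 kb in the IGF2BP3 knockout. These were 10.4%, 11.4%, 9.33% and 8.74% of the windows, where the windows of all protein-coding genes were covered to 1.76%, 2.29%, 2.09% and 1.77%. The windows of the 38 HOX genes total 451.945 kb, and those of the 20056 protein-coding genes 1392.85 Mb. HOX windows are thus shorter per gene, and these values per length do not compare peaks per gene.

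The whole lists held 39194 peaks in the control, 50917 in the IGF2BP1 knockout, 60262 in the IGF2BP2 knockout and 44041 in the IGF2BP3 knockout. HOX coverage did not follow these lengths. Relative to the control, covered bases in HOX windows were 1.10 times in the IGF2BP1 knockout, 0.901 times in the IGF2BP2 knockout and 0.844 times in the IGF2BP3 knockout, whereas the whole lists covered 1.40, 1.33 and 1.06 times the control. Windows of all protein-coding genes lay between, at 1.30, 1.19 and 1.01 times.

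By cluster, HOXA stood apart in the IGF2BP1 knockout. Its covered bases there were 1.52 times the control (14.5 kb against 9.56 kb), close to the 1.49 times of chromosome 7 as a whole. In the same list HOXB was at 1.01 times, beside 1.06 times for chromosome 17. HOXC was at 0.983 times and HOXD at 1.01 times, although chromosomes 12 and 2 were at 1.42 and 1.49 times. The IGF2BP2 knockout was below the control in all 4 clusters, at 0.868 (HOXA), 0.972 (HOXB), 0.895 (HOXC) and 0.850 (HOXD), beside chromosome values of 1.12, 1.13, 1.37 and 1.45. In the IGF2BP3 knockout the clusters were at 0.886 (HOXA), 0.832 (HOXB), 0.843 (HOXC) and 0.822 (HOXD). Their chromosomes were at 0.938, 1.06, 1.12 and 0.852. The part that chromosome-wide differences have in the cluster ratios was not tested.

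**Figure D1:**
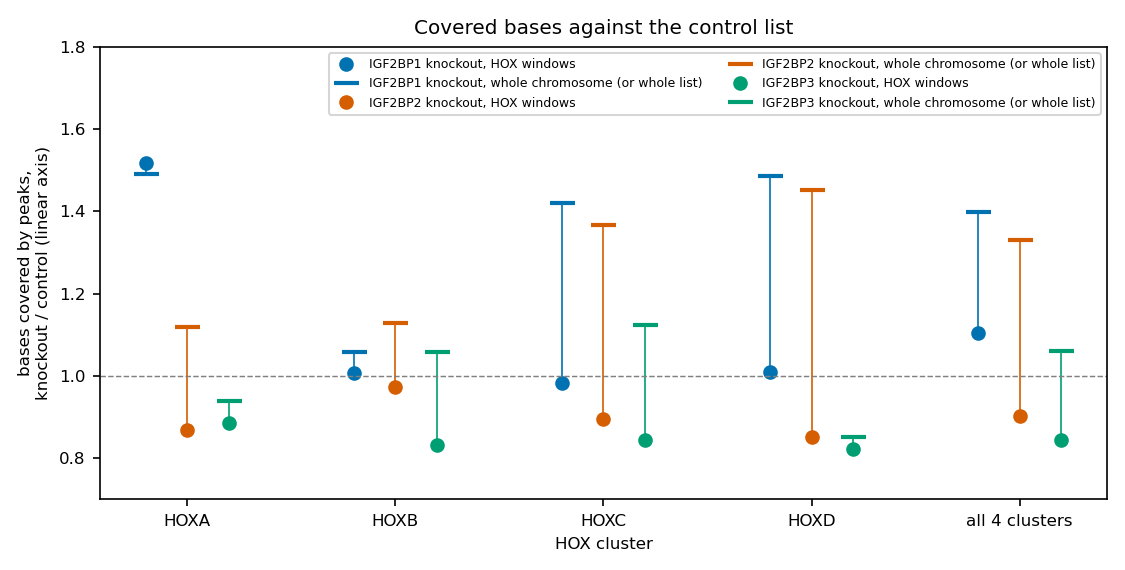
Bases covered by peaks in each knockout list divided by those in the control list (vertical axis, linear, no unit), by HOX cluster (horizontal axis). Circles are HOX windows and bars the whole chromosome of that cluster, or the whole list in the last column, with a line joining the pair; 11 of the 12 single-cluster circles lie below their bar, and HOXA in the IGF2BP1 knockout (1.52 against 1.49) lies above it.

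HOX peaks were near the median width of their list in 3 lists and above it in the IGF2BP1 knockout. Their median width was 805 bp for the control, with 1074, 645 and 747.5 bp for the lists of the IGF2BP1, IGF2BP2 and IGF2BP3 knockouts, beside list medians of 771, 834, 651 and 713 bp. The median width percentile of HOX peaks within their own list was 53.3, 70.9, 49.3 and 53.6, so the IGF2BP1 knockout had the HOX peaks that were widest for their list. Peaks at the starts of protein-coding genes were wider, with medians of 1110, 1211, 1059 and 1094 bp. HOXD peaks were the widest by cluster in the control, with a median of 1203 bp, against 640 bp in HOXB. Single peaks ranged from 239 bp, in the IGF2BP2 knockout, to 2458 bp, in the control. The widest HOX peak of each list lay in a different gene: in HOXC4 in the control (2458 bp), at HOXA13 in the IGF2BP1 knockout (2066 bp), at HOXB13 in the IGF2BP2 knockout (1950 bp) and at HOXC13 in the IGF2BP3 knockout (1762 bp).

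Open and closed stretches alternated along each cluster. A stretch was called closed where at least 10 kb held no peak of any list between the outermost genes of a cluster, extended by 5 kb. There were 12 such stretches with 205.3 kb in total. Within single lists there were 16 in the control (289 kb), 17 in the IGF2BP1 knockout (301 kb), 15 in the IGF2BP2 knockout (258.3 kb) and 18 in the IGF2BP3 knockout (330.8 kb). HOXA5, HOXB1 and HOXD10 had no peak in their body or within 5 kb in any list.

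**Figure D2:**
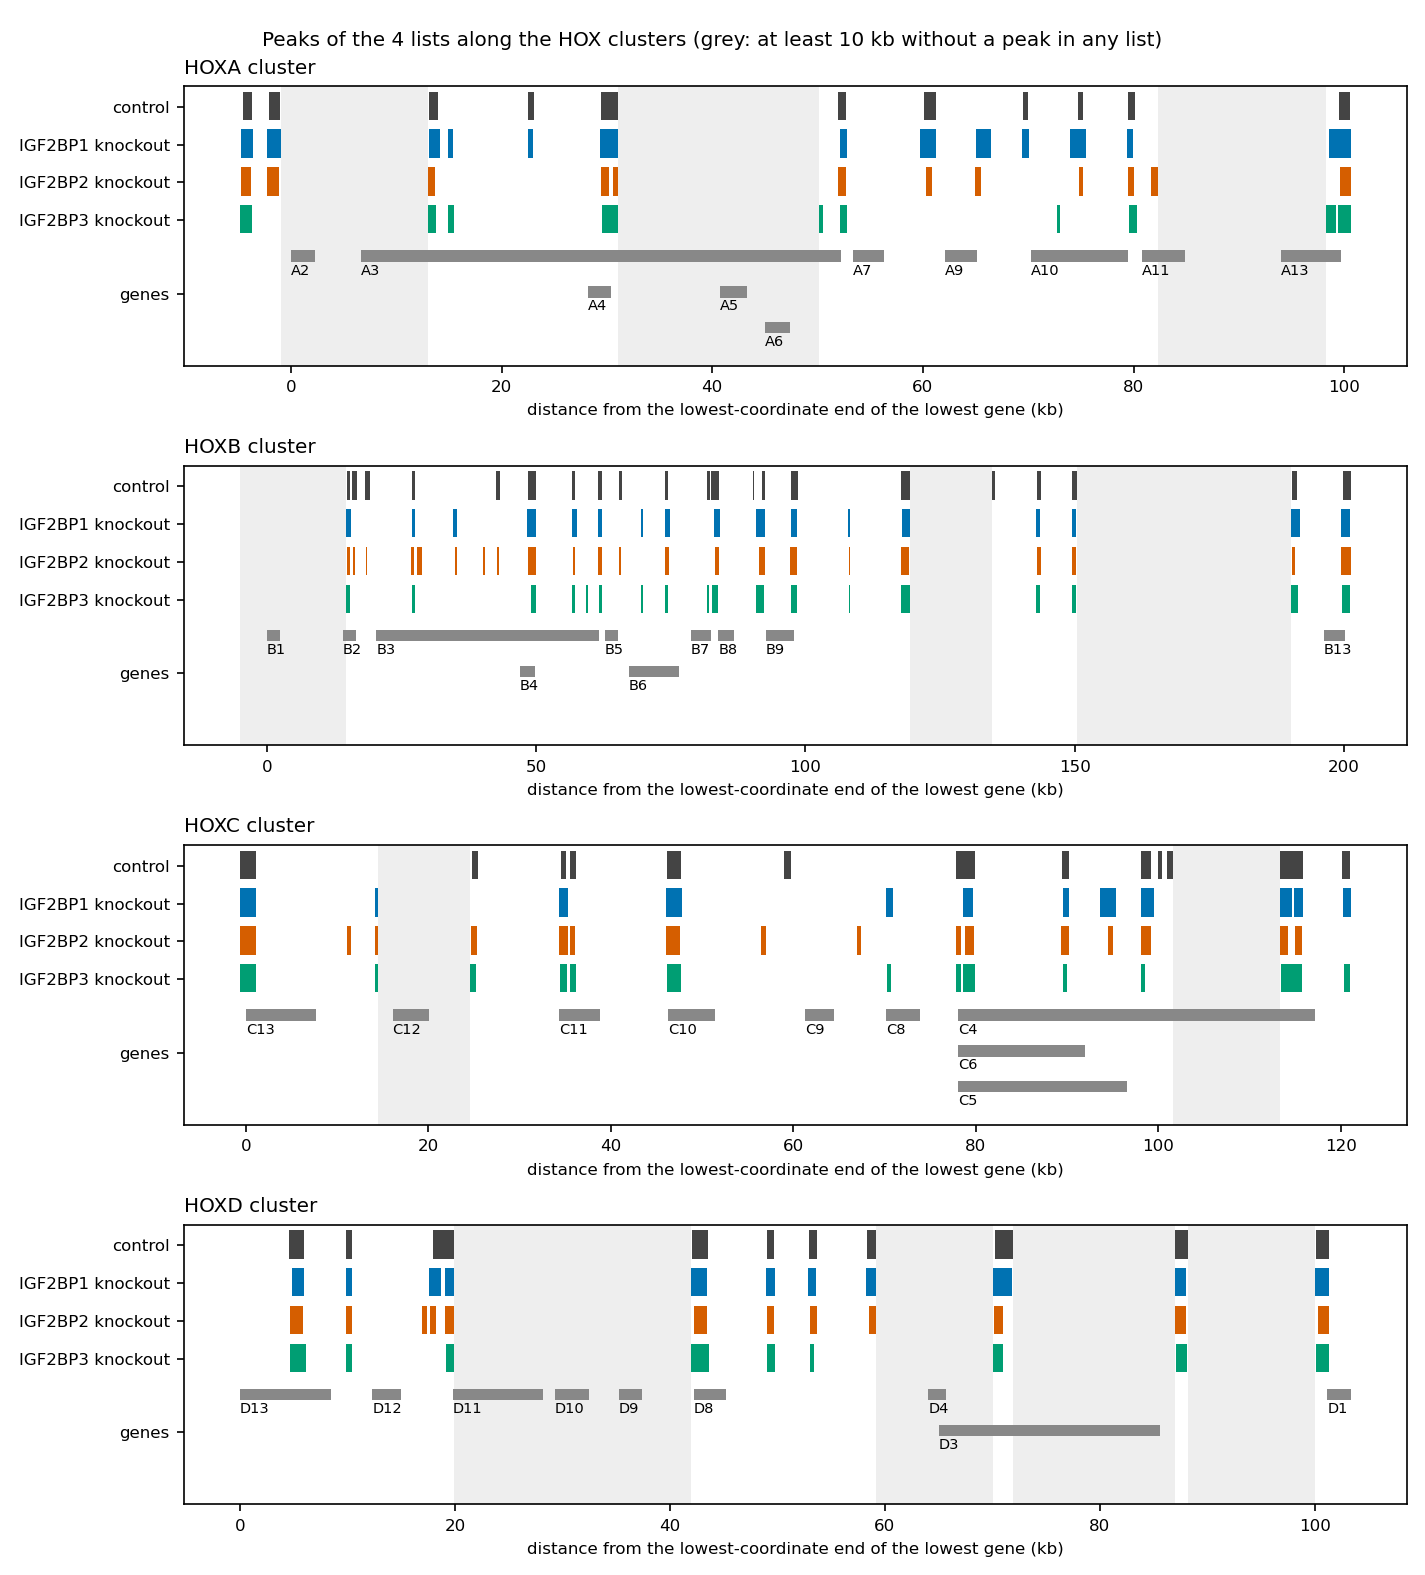
Every deposited peak along the 4 HOX clusters (horizontal axis: distance in kb from the lowest-coordinate end of the lowest gene), with a row of bars for each list, gene bodies below, and the 12 stretches of at least 10 kb without a peak in grey. From HOXB2 to HOXB9 the 4 lists together leave no gap of 10 kb, although 3 of the single rows do. Within HOX windows the HOXD cluster holds the fewest peaks in each list, but per 100 kb it is lowest only in the control and the IGF2BP3 knockout. The row of the IGF2BP3 knockout is empty between HOXA7 and HOXA10.

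The HOXA cluster held 16 regions, of which 6 were in all 4 lists. At its low end, 2 regions near HOXA2, a hindbrain factor, overlapped HOTAIRM1, a noncoding RNA of the cluster. The outer one was in all lists (884, 1146, 999 and 1114 bp in the control and the IGF2BP1, IGF2BP2 and IGF2BP3 knockouts, the order used throughout). The inner one, chr7:27098077-27099375, was 1069, 1276 and 1142 bp in the first 3 lists and missing in the IGF2BP3 knockout. A closed stretch of 14.0 kb covered HOXA2 itself and the low end of HOXA3. The next open stretch, of 18 kb, ended at the HOXA4 start with 1639, 1712, 1185 and 1502 bp. Behind it lay 19.0 kb without a peak, with HOXA5 and HOXA6.

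The open stretch from the high end of HOXA3 to HOXA11 measured 32.2 kb and held 9 regions, the largest number in the cluster, but only 2 of them were in all 4 lists. It held 5 regions in the control, 6 in each of the IGF2BP1 and IGF2BP2 knockouts and 4 in the IGF2BP3 knockout. The IGF2BP3 knockout had no peak in the 19.9 kb from chr7:27153169 to chr7:27173052, where HOXA7, HOXA9 and part of HOXA10 lie. The other lists had 1141, 1473 and 550 bp there at chr7:27160101-27161632, between HOXA7 and HOXA9. The region at the HOXA9 start, chr7:27165310-27166854, was 1432 bp in the IGF2BP1 knockout and 523 bp in the IGF2BP2 knockout, and the control and the IGF2BP3 knockout had none. At HOXA10, which acts in the uterus and in blood progenitors, the start at the high end of the gene had 724, 608, 587 and 774 bp. Near its second listed start, inside the gene, the region chr7:27174343-27175801 had 454, 1459 and 346 bp in the first 3 lists. The IGF2BP3 knockout lacked that region and had a separate peak of 336 bp on the other side of this start, 932 bp from it. A closed stretch of 16.0 kb then ran from HOXA11 into HOXA13. The HOXA13 start was open in all lists, with 1051, 2066, 1041 and 2253 bp.

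The HOXB cluster held 22 regions, 11 of them in all 4 lists. A closed stretch of 19.7 kb held HOXB1 and reached the edge of HOXB2. From there, 104.8 kb up to a peak beyond HOXB9 had no gap of 10 kb when the lists were pooled, and this was the longest such stretch of the 4 clusters. Single lists did have gaps within it, of 15.2 kb in HOXB3 and 19.1 kb beyond HOXB9 in the control, of 11.2 and 13.1 kb in the IGF2BP1 knockout and of 11.4 and 21.5 kb in the IGF2BP3 knockout, and the IGF2BP2 knockout had none. The gap of 21.5 kb (chr17:48556022-48577498), in HOXB3 and up to HOXB4, was longer than the one of that list in HOXA. The whole stretch of 104.8 kb held 22 regions, 2 of them outside the HOX windows. By list, 16 of the 22 were in the control, 13 in the IGF2BP1 knockout, 18 in the IGF2BP2 knockout and 14 in the IGF2BP3 knockout. At the HOXB4 start, a factor of blood stem cells, covered widths were 1434, 1618, 1535 and 1004 bp. At the high end of HOXB3 they were 690, 747, 596 and 706 bp, and at the high end of HOXB9 1214, 1082, 1251 and 1088 bp. HOXB13, a factor of the prostate and the tail bud, stands far from the others. The longest closed stretch of the 4 clusters, 39.8 kb, lay between HOXB9 and HOXB13. At the HOXB13 start all lists had a peak, of 1570, 1786, 1950 and 1511 bp.

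The HOXC cluster held 19 regions, 7 of them in all 4 lists. The HOXC13 start, at the low end, had nearly the same width in each list, 1721, 1735, 1719 and 1762 bp. HOXC12 lay in a closed stretch of 10.0 kb. An open stretch of 77.0 kb with 14 regions followed, from HOTAIR and HOXC11 to the body of HOXC4. Covered widths at HOXC10 were 1630, 1678, 1479 and 1628 bp, and at HOXC11 622, 1012, 1025 and 781 bp. RefSeq gives HOXC4, HOXC5 and HOXC6 a shared low end, where the lists had 2065, 1129, 1421 and 1759 bp. HOXC4 is the longest of these and overlaps the bodies of both others. A closed stretch of 11.8 kb cut through this gene. Beyond it, chr12:54052171-54054661 was the widest region of the cluster, with 2458, 2295, 1730 and 2353 bp.

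The HOXD cluster held the fewest regions, 10, and the largest share of regions in all 4 lists, 8 of 10. Closed stretches of 22.0, 10.9, 15.0 and 11.9 kb made up 59.8 kb of its 113.4 kb span. The longest held HOXD9 and HOXD10 and the body of HOXD11. The next held HOXD4. Peaks stood at HOXD13 (1312, 1198, 1183 and 1431 bp), at the HOXD11 start (1920, 1951, 1491 and 817 bp) and at HOXD8 (1534, 1457, 1198 and 1688 bp). HOXD3 had 1740, 1725, 870 and 878 bp near its start. HOXD1, at the anterior end, had 1203, 1328, 1053 and 1242 bp.

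By gene, a peak stood within 1 kb of a start position at 23 of the 38 HOX genes in the control, 25 in the IGF2BP1 knockout, 24 in the IGF2BP2 knockout and 24 in the IGF2BP3 knockout. The same was true of 66.5%, 68.6%, 68.1% and 67.4% of all protein-coding genes. The start was the RefSeq start where one was listed (20 genes) and either end of the gene for the other 18, so a peak at a 3′ end counted for those. All 4 lists had such a peak at 23 HOX genes (64.1% of all protein-coding genes), no list had one at 13 (29.1%) and some lists at 2 (6.75%). Among the 20 genes with a listed start alone, 11 had a peak there in all lists and 8 in none. Reading every other gene in the direction of its cluster gave 20 of 38 in all lists and 14 in none. In that reading, a peak covered the start itself at 11 genes in all lists, at 10 in some and at 17 in none.

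The 13 genes without a start peak were HOXA2, HOXA5, HOXA6, HOXA7 and HOXA11, HOXB1 and HOXB6, HOXC9 and HOXC12, and HOXD4, HOXD9, HOXD10 and HOXD12. They came from every cluster, 5 from HOXA, 2 from HOXB, 2 from HOXC and 4 from HOXD. By paralog group, all 4 members of group 13 (HOXA13, HOXB13, HOXC13 and HOXD13) had a start peak in every list, and so did the 3 listed members of group 3 (HOXA3, HOXB3 and HOXD3). Neither member of group 12 (HOXC12 and HOXD12) had one in any list. Of the 4 members of group 9, HOXB9 alone had one in all lists.

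Start peaks differed between lists at HOXA9 and HOXC8. HOXA9 had 1432 bp in the IGF2BP1 knockout and 523 bp in the IGF2BP2 knockout, and its promoter printed above lay wholly under both peaks. HOXC8, a factor of the thoracic and lower cervical region, had 778 bp in the IGF2BP1 knockout and 490 bp in the IGF2BP3 knockout. Neither gene had a start peak in the control. When each gene without a listed start was read in the direction that its cluster shares (an alternative added after the data were seen), HOXB2 and HOXB5 also differed. Within 1 kb of its start HOXB2 then had 782 bp (control), 929 bp (IGF2BP1 knockout) or 372 bp (IGF2BP2 knockout), and the IGF2BP3 knockout had none. These peaks are not of the same region. The 782 and 372 bp peaks lay in chr17:48544383-48545164. The 929 bp peak lay in chr17:48543197-48544162, toward the low end, which all lists held (540, 929, 694 and 795 bp). Only the control had a peak over the HOXB2 start itself. HOXB5 had 500 bp in the control, 239 bp in the IGF2BP2 knockout and none in the IGF2BP1 and IGF2BP3 knockouts. HOXB8 had none in any list under this reading.

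**Figure D3:**
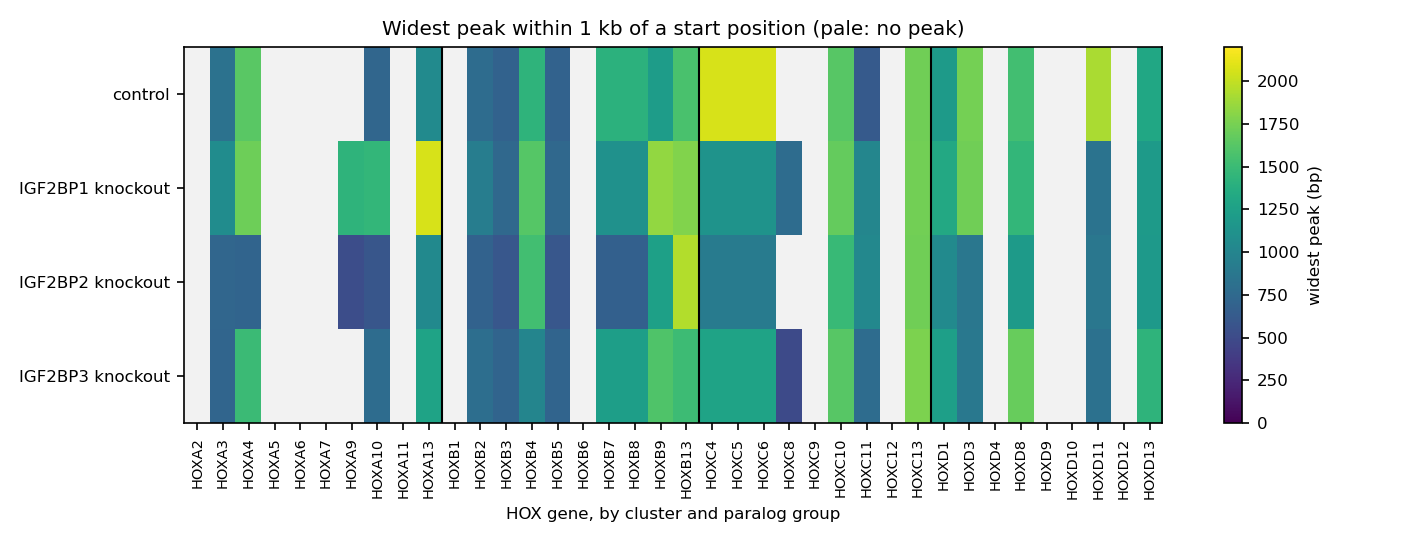
Width in bp (colour) of the widest peak within 1 kb of a start position, for each of the 38 HOX genes (horizontal axis, by cluster and paralog group) in each list (rows), with pale cells where no peak was found. HOXA9 and HOXC8 are filled in 2 of the 4 rows, 13 genes are pale in all rows, and the genes of paralog group 13 are filled in all rows.

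Where a region stood relative to a start went with how many lists held it. Of the 30 HOX regions within 1 kb of a start position, 21 (70.0%) were in all 4 lists, and among all protein-coding windows 86.2% were. Of the 37 regions farther away, 11 (29.7%) were in all 4 lists, beside 31.1%. Regions near starts were also wider, with a median merged width of 1471 bp against 696 bp. A merged width spans the peaks of every list that holds the region, so it is not independent of the number of lists. Over all HOX regions, 32 of 67 (47.8%) were in all 4 lists, beside 41.5% of all regions and 49.4% of regions in protein-coding windows. By cluster these were 6 of 16 in HOXA, 11 of 22 in HOXB, 7 of 19 in HOXC and 8 of 10 in HOXD.

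Of the remaining HOX regions, 8 were in 3 lists, 13 in 2 and 14 in 1. The IGF2BP2 knockout alone held 7, the control alone 4 and the IGF2BP3 knockout alone 3. These were 10.4%, 5.97% and 4.48% of HOX regions, beside 15.2%, 1.98% and 4.9% of all regions. No HOX region was in the IGF2BP1 knockout alone, where 6.03% of all regions were. The control lacked a single HOX region that all 3 knockouts held, chr12:53952939-53953333 near HOXC12, with narrow peaks of 395, 311 and 335 bp. Over all regions that class held 6.88%.

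Against the control, HOX regions were lost from the knockout lists by a larger share, and gained by a smaller share, than regions elsewhere. The IGF2BP1 knockout gained 7 of 67 (10.4%) and lost 11 (16.4%), beside 22.1% and 5.47% of all regions, and 19.4% and 5.39% of regions in protein-coding windows. The IGF2BP2 knockout gained 11 (16.4%) and lost 8 (11.9%), beside 33.5% and 4.66% of all regions, and 26.9% and 4.99% in protein-coding windows. The IGF2BP3 knockout gained 7 (10.4%) and lost 14 (20.9%), beside 16.6% and 10% of all regions, and 13.1% and 10.2% in protein-coding windows. As a share of the 50 control regions, the losses were 22%, 16% and 28%, where the control lost 10.1%, 8.59% and 18.4% over all its regions. The 3 comparisons use the same control list and are not independent, and with 1 list a group these shares carry no test. With the same number of widest peaks taken from each list, gains fell to 3 in each knockout and losses in the IGF2BP2 knockout rose to 15. That setting kept the control list whole and shortened the knockout lists alone, which favours losses by construction. Shares over all regions were not computed under it. Of the losses, 6 of 11, 5 of 8 and 11 of 14 lay over 1 kb from any knockout peak. Over all regions these were 3632 of 3916, 3080 of 3337 and 6850 of 7158.

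The clusters contributed unequally. HOXA lost no region in the IGF2BP1 knockout, 2 of 16 in the IGF2BP2 knockout and 5 in the IGF2BP3 knockout. HOXB lost 6 of 22 regions in the IGF2BP1 knockout, 2 in the IGF2BP2 knockout and 5 in the IGF2BP3 knockout. HOXC lost 5 of 19, 4 and 3. HOXD lost none in the first 2 knockouts and 1 of 10 in the IGF2BP3 knockout. On chromosome 7, 4.41%, 7.5% and 13.2% of all regions were lost, and on chromosome 17 11%, 5.68% and 8.17%. On chromosome 12 the shares were 4.7%, 3.51% and 7.93%, beside 26.3%, 21.1% and 15.8% for HOXC, and on chromosome 2 they were 4.67%, 3.94% and 14.8%, beside 0%, 0% and 10% for HOXD.

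The widest gain of the IGF2BP1 knockout was chr12:54032499-54034160, in the bodies of HOXC4 and HOXC5, with 1662 bp there, 598 bp in the IGF2BP2 knockout and no peak in the other lists. It was followed by the HOXA9 and HOXC8 starts described above, by chr17:48563168-48563756 in HOXB3 (577 bp, and 325 bp in the IGF2BP2 knockout), and by chr7:27115238-27115855 in HOXA3 (435 bp, and 618 bp in the IGF2BP3 knockout). Each of these 5 regions was thus also held by 1 other knockout. The IGF2BP2 knockout gained regions that no other list held, of 812 bp in HOXB3 (chr17:48556472-48557283), 572 bp in HOXA11 (chr7:27182056-27182627) and 509 bp before HOXD11 (chr2:176104403-176104911). In the IGF2BP3 knockout the gains were narrower. Apart from the HOXA3 and HOXC8 regions above, its widest were 446 bp at an inner HOXA3 start (chr7:27150473-27150918), 336 bp in HOXA10 (chr7:27173053-27173388) and the 335 bp region near HOXC12.

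Losses were shared between knockouts at several places. A pair of HOXB regions, chr17:48546662-48547642 between HOXB2 and HOXB3 (981 bp in the control, 367 bp in the IGF2BP2 knockout) and chr17:48544383-48545164 at the high end of HOXB2 (782 and 372 bp), had no peak in the IGF2BP1 and IGF2BP3 knockouts. Both lie in HOXB-AS1, a noncoding RNA gene. Near HOXC9, a peak of 728 bp (chr12:53997821-53998548) was in the control alone, and so were 577 bp (chr12:54039834-54040410) and 498 bp (chr12:54038756-54039253) in the HOXC4 body. The IGF2BP1 knockout also lacked 636 bp near HOXC12 (chr12:53963365-53964255) and 626 bp in HOXB3 (chr17:48571109-48571734). Missing from the IGF2BP2 knockout were 891 bp beyond HOXC4 (chr12:54058949-54060000), which the other 3 lists held, and 575 bp at an inner HOXA3 start (chr7:27122862-27123436). That knockout also lacked 545 bp at the high end of HOXB7 (chr17:48610249-48610859). The 626 and 575 bp regions were missing from the IGF2BP3 knockout too, and the 545 bp region from the IGF2BP1 knockout. Besides these shared losses, the IGF2BP3 knockout lacked the regions between HOXA7 and HOXA9 and near HOXA2 given above. It also lacked one of 840, 896 and 620 bp between HOXD8 and HOXD4 (chr2:176145737-176146669).

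**Figure D4:**
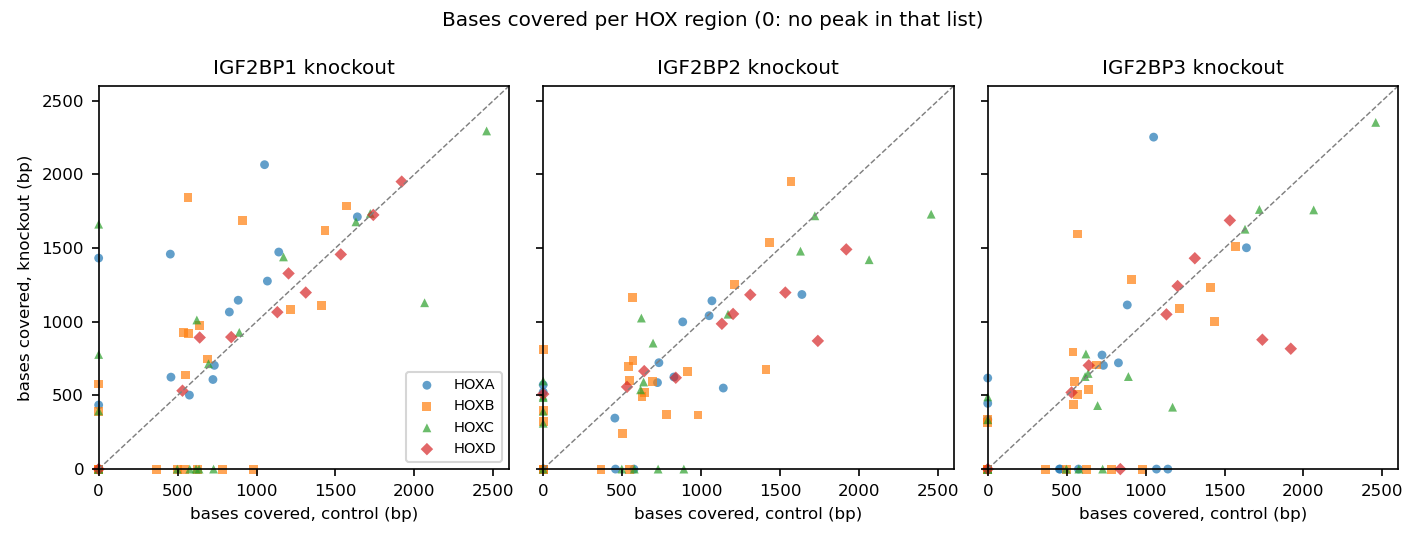
Bases covered by peaks in each of the 67 HOX regions, in the control (horizontal axis, bp) and in each knockout (vertical axis, bp), with a symbol for each cluster and a dashed line of equality. Points on an axis are regions that one list lacks; the HOXB9 region (566 bp in the control) lies well above the line in all 3 panels, and HOXD regions lie close to it in the IGF2BP1 knockout.

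In the 32 HOX regions of all 4 lists, covered widths changed by little at the median. The median log2 ratio of covered width to the control was 0.09 in the IGF2BP1 knockout, -0.14 in the IGF2BP2 knockout and -0.04 in the IGF2BP3 knockout, beside 0.12, 0.00 and -0.03 over all 29686 regions of all 4 lists. The knockout was narrower than the control in 10, 20 and 18 of the 32, or 31.2%, 62.5% and 56.2%, beside 24.8%, 50.8% and 55.7% of all such regions. The log2 ratios of single regions ranged from -0.87 to 1.71, from -1.06 to 1.04 and from -1.48 to 1.5.

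A change of at least 2-fold in width was seen in a few regions. In the IGF2BP1 knockout 1 of 32 was at least 2-fold wider (2.06% of all such regions) and none at most 0.5 times (0.128%). In the IGF2BP2 knockout 1 was wider (0.674%) and 2 narrower (1.01%) by that factor. In the IGF2BP3 knockout 2 were wider (0.694%) and 2 narrower (1.52%). Each share of the 32 rests on at most 2 regions.

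The largest widening was at chr17:48619266-48621112 beside the low end of HOXB9, where 566 bp in the control compared with 1846, 1165 and 1596 bp (log2 ratios 1.71, 1.04 and 1.5). In the control, a further peak of 366 bp stood just before it (chr17:48618704-48619069), in no other list. The HOXA13 region was wider in the IGF2BP1 and IGF2BP3 knockouts (log2 ratios 0.98 and 1.10). Also wider were a region 4435 bp from HOXB13 in the IGF2BP1 knockout (913 against 1686 bp, 0.88), the HOXC11 start in the IGF2BP2 knockout (0.72), a HOXB6 region in the IGF2BP2 knockout (569 against 736 bp, 0.37) and the low end of HOXB2 in the IGF2BP3 knockout (540 against 795 bp, 0.56). Both of these were wider still in the IGF2BP1 knockout, at 919 and 929 bp. In the IGF2BP2 knockout the peak of the HOXB13 region, 664 bp, ended just outside the 5 kb window, so it counts among its regions and not among its HOX peaks.

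Narrower regions included the HOXC4, HOXC5 and HOXC6 start in the IGF2BP1 knockout (2065 against 1129 bp, -0.87) and the IGF2BP2 knockout (1421 bp, -0.54). The promoter of HOXC4 and HOXC5 shown above lay under the peaks of the other 3 lists by 240 to 264 of its 300 bases and outside the IGF2BP1 knockout's. The region at the low end of HOXB8 (chr17:48611087-48612608) went from 1412 to 677 bp in the IGF2BP2 knockout (-1.06) and to 1110 bp in the IGF2BP1 knockout (-0.35). Read in the direction of the cluster, its peaks count for the HOXB7 start and not for that of HOXB8. The HOXA10 start was 724 against 608 bp in the IGF2BP1 knockout (-0.25). HOXD3, at 1740 bp in the control, had 870 bp when IGF2BP2 was lacking (-1) and 878 bp when IGF2BP3 was lacking (-0.99). In the IGF2BP3 knockout the HOXD11 start measured 817 against 1920 bp (-1.23), and a region in the HOXC4 body (chr12:54036886-54038370) 420 against 1171 bp (-1.48).

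Some control peaks corresponded to a pair of knockout peaks. Among regions held by both lists, the knockout had more peaks than the control in 2 of 39 HOX regions for the IGF2BP1 knockout, 4 of 42 for the IGF2BP2 knockout and 3 of 36 for the IGF2BP3 knockout. Over all regions these shares were 0.235%, 1.45% and 0.991%. No HOX region had fewer peaks in a knockout, where 0.868%, 0.445% and 0.669% of all regions did, shares too small to show in this many regions. In the region near the high end of HOXC4 (chr12:54052171-54054661), the single control peak of 2458 bp faced pairs of 1287 and 1008 bp, 880 and 850 bp, and 622 and 1731 bp. At the HOXC4, HOXC5 and HOXC6 start, 2065 bp in the control faced 1129 bp, then 503 and 918 bp, then 487 and 1272 bp. At HOXA4, only the IGF2BP2 knockout was divided (707 and 478 bp), and at HOXA13 only the IGF2BP3 knockout (979 and 1274 bp). HOXD11 was divided in the IGF2BP1 knockout (1111 and 840 bp) and the IGF2BP2 knockout (621 and 870 bp). Both HOXC regions were among the widest control peaks, of at least 2000 bp, which over all regions were divided at shares of 4.17%, 20.4% and 13.2%.

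MicroRNA genes lie between the HOX genes, and several of their targets are HOX messenger RNAs. Mature sequences from RefSeq are given for miR-196b, miR-196a and miR-615, whose nearest HOX regions differed between lists at one gene copy or more, and for miR-10a, whose nearest region did not, with the seed (bases 2 to 8), which pairs with targets, in capitals. miR-196b and miR-196a share a seed.
miR-196b-5p (chr7:27169528-27169549, minus strand): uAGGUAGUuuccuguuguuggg
miR-196a-5p (chr12:53991762-53991783, plus strand): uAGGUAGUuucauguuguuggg
miR-615-3p (chr12:54034010-54034031, plus strand): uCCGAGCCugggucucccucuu
miR-10a-5p (chr17:48579904-48579926, minus strand): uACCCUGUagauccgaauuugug
MIR615 lies under the peak of the IGF2BP1 knockout in the bodies of HOXC4 and HOXC5 (chr12:54032499-54034160). The IGF2BP2 knockout peak in the same region (chr12:54033299-54033896) ends before the MIR615 hairpin. MIR196B lies 215 bp from a region between HOXA9 and HOXA10 (chr7:27169778-27170401) of 458 bp in the control and 624 bp in the IGF2BP1 knockout, with no peak in the other lists. The nearest region to MIR10A, 1336 bp away, was the HOXB4 start, open in all lists. MIR10B lay 3634 bp from the region between HOXD8 and HOXD4 that the IGF2BP3 knockout lacked. MIR196A2 and MIR196A1 lay 3469 and 5343 bp from the nearest HOX region.

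Noncoding RNA genes of the clusters were counted like the HOX genes. Of 23 listed, 9 had a peak within 1 kb of a start position in all 4 lists, 8 in none and 6 in some. For all protein-coding genes these shares were 64.1%, 29.1% and 6.75%, and for all noncoding genes they were not computed. HOTTIP, which is transcribed beside HOXA13, had 1051, 2066, 1041 and 1274 bp at its start, from the HOXA13 region. For the widest peak within 1 kb, HOTAIR had 622, 1012, 1025 and 781 bp and HAGLR 1203, 1328, 1053 and 1242 bp, from the HOXC11 and HOXD1 regions. The high end of HOTAIR itself lay in another region, chr12:53974366-53975027. That region had 617, 538 and 628 bp in the control and the IGF2BP2 and IGF2BP3 knockouts, and no peak in the IGF2BP1 knockout. In some lists were HOXA-AS2 (575 and 502 bp in the control and the IGF2BP1 knockout), HOXA10-AS and MIR196B (458 and 624 bp in the same lists), HOXC-AS1 (728 bp in the control), HOXC-AS2 (495 bp in the IGF2BP2 knockout) and MIR615. Without strand in the lists, a peak between a HOX gene and its antisense partner belongs to both.

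Genes that act on or with HOX proteins were read the same way, beside 64.1% of all protein-coding genes with a start peak in all 4 lists and 29.1% with none. All 14 Trithorax and boundary genes had a start peak in all 4 lists, such as KMT2A (2006, 1983, 2144 and 1963 bp), which encodes a histone methyltransferase that keeps HOX genes active, and CTCF (1644, 1844, 1051 and 1649 bp). Of 22 Polycomb genes, 18 had one in all lists, among them EZH2 (1467, 2075, 1603 and 1586 bp), the methyltransferase of the complex. BMI1 lacked one in the IGF2BP1 knockout, RING1 in the IGF2BP3 knockout, CBX2 had one in the IGF2BP1 and IGF2BP3 knockouts, and PCGF2 had none. Of 9 HOX cofactors, 5 had a start peak in all lists, including MEIS1 (2450, 2612, 2559 and 2540 bp). PBX3 and MEIS2 had none. PBX2 lacked one in the IGF2BP3 knockout and MEIS3 had 400 bp in that list alone. Among ParaHox genes, the relatives of HOX genes outside the clusters, 4 of 6 were open in all lists and CDX1 and CDX4 in none. Next to the clusters, EVX1 had 470 bp in the IGF2BP2 knockout alone and EVX2 had none, and 8 of 11 neighbours were open in all lists. Among these, CBX3 and HNRNPA2B1 had the same widths (1702, 1797, 1963 and 2010 bp) and may not count separately.

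The label of the cells was checked with marker genes. Of 11 genes of kidney development and epithelium, 8 had a start peak in all 4 lists, beside 64.1% of all protein-coding genes. PAX2 had 2712, 1621, 1413 and 1422 bp, PAX8 and CDH16 had none, and KRT8 had one in the IGF2BP3 knockout alone. Both mesenchymal markers and the 3 neural markers listed for this line were open in all lists. Among markers of other lineages, PTPRC and ALB had no start peak, CD3E had 450 bp in the IGF2BP1 knockout, and SPI1 had 820 to 981 bp in all lists.

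Overlap of bases summarised how alike the lists were along the HOX genes. The Jaccard index, bases in both lists divided by bases in either, ran from 0.545 (IGF2BP2 and IGF2BP3 knockouts) to 0.591 (control and IGF2BP2 knockout) in the HOX windows, and from 0.563 to 0.612 in the whole lists. HOXD had the highest values, from 0.677 to 0.802. In HOXA the 3 pairs with the IGF2BP3 knockout had the lowest, 0.398 to 0.411, against 0.466 to 0.604 for the other pairs.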

How the data were processed

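ATAC-seq peaks of 4 groups of HEK293T cells were analysed as the authors deposited them, 1 list a group, each a peak's start and end in bp with no score (unit other). Per the submitters' processing notes, fastp 0.24.1, BWA 0.7.17, MACS2 3.0.0, bedtools and GRCh38 were used; their settings, the threshold and the way libraries were combined are not given in the sources used here. The 9 libraries have no values of their own. Overlapping peaks (at least 1 bp) were merged into regions with pandas 2.3.3 and NumPy 2.4.6 in Python 3.11.15, tested on simulated data. Gene and promoter positions came from RefSeq GRCh38.p14, which lists gene ends without strand or exons, so exonic and intronic positions were not determined. Where no start was listed, either gene end was used within 1 kb. All members are accounted for. Named with values were genes whose start peak was in some lists or in none, the widest regions, up to 5 gained and 5 lost regions in each knockout by width, and up to 3 regions with the largest width ratios in each direction; genes of the other lists were chosen after their values were seen. The members, lists and alternatives were chosen with earlier results of these data known.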

Additional observations from a re-analysis of the deposited data

How the results depend on the processing

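Of 121 values recomputed under alternatives, 15 moved beyond the limits set for them. Taking the same number of widest peaks from each list, the median HOX peak width in the IGF2BP2 knockout was 855 bp, gained regions numbered 3, 3 and 3 in the knockouts of IGF2BP1, IGF2BP2 and IGF2BP3, and lost regions in the IGF2BP2 knockout 15. With peaks of at least 500 bp, gains were 5 in the IGF2BP2 knockout and 1 in the IGF2BP3 knockout. Over gene bodies alone, losses were 6, 4 and 6 in the same order, and gains in the IGF2BP2 knockout 6. A closed stretch defined from 5 kb gave 37 stretches, and from 20 kb 2. Counting only regions 1 kb or more from every peak of the other list was added after the data were seen. It left 6 of 11 losses in the IGF2BP1 knockout and 5 of 8 in the IGF2BP2 knockout. Over all regions it left 3632 of 3916 and 3080 of 3337, so HOX losses lay more often beside a remaining knockout peak. For the last 3 settings fewer regions or other gaps qualify by construction. Taking the widest peaks kept the control list, the shortest with 39194 peaks, whole and removed narrower peaks from the knockout lists alone. Fewer gains, more losses and wider knockout medians are therefore favoured by construction there too. A 50% overlap, joining peaks closer than 500 bp, a window of 2 kb and all other start positions moved no value beyond its limit. For counts that limit was a factor of 1.5. With a peak required over the start itself, 19, 18, 17 and 16 HOX genes had one, against 23, 25, 24 and 24 within 1 kb. The control thus went from the fewest to the most, so the order of the lists depends on the distance allowed. No paired analysis was possible because each group has 1 list without replicates, and leaving out a replicate could not be run for the same reason. Depth limits every absence from a list.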
